A study of Mus musculus with 2 samples.

Results

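Cytotoxic CD8 T cells of the mouse gingiva are described here from a series of 2 single-cell RNA libraries, 1 from Otud1-/- mice and 1 from wild-type (WT) mice, both on the C57BL/6 strain. The cells were immune cells that had entered the gum, in a study of experimental periodontitis and of OTUD1, a deubiquitinase, which is an enzyme that takes ubiquitin off other proteins. The labels do not state the number, sex or age of the animals behind each library, the treatment of the gums or the deleted part of Otud1. With 1 library per genotype there was no replicate, no test was run, and all 95% intervals cover counting error only.

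Cells were selected on their own counts of unique molecular identifiers (UMIs), the tags that count single transcripts. A barcode was kept if it had 200 or more genes and no more than 15% of its UMIs from mitochondrial genes. It was a CD8 T cell if Cd3e, Cd3d, Cd3g and Trac gave at least 3 UMIs together, Cd8a and Cd8b1 at least 1, and Foxp3 0. It was a cytotoxic CD8 cell if Gzmk, Gzmb, Nkg7 and Ccl5 gave at least 3 UMIs together, and a low-cytotoxic CD8 cell if they gave at most 1. This took 460 cytotoxic CD8 cells out of 21376 barcodes, of which 177 came from the library labelled Otud1-/- (8109 barcodes, 6936 kept) and 283 from the WT library (13267 barcodes, 12769 kept). The low-cytotoxic CD8 cells numbered 106 in the library labelled Otud1-/- and 230 in the WT library, and 34 and 55 cells in these libraries had exactly 2 such UMIs and were in neither group.

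CD8 T cells recognise peptides on MHC class I molecules of other cells. After activation they leave lymph nodes, enter tissues and kill target cells with granules that hold perforin, which opens membranes, and granzymes, which are proteases. They can also kill through FAS ligand at the cell surface. Naive CD8 cells instead carry the homing receptor CCR7 and the transcription factors LEF1 and TCF1 (Tcf7), and recirculate between blood and lymph nodes. In inflamed gum, CD8 T cells are one of several lymphocyte populations beside myeloid cells and B cells.

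The libraries differed in ways that touch every comparison between them. Otud1 itself was at 33.0 CPM (the gene's UMIs scaled to 1 common total in every group) in the library labelled Otud1-/- and at 18.6 CPM in the WT library. The UMIs count 3′ ends and the deleted part of Otud1 is not given. These levels therefore cannot check the genotype label, and "labelled" is kept throughout. The median kept barcode held 4336.5 UMIs in the library labelled Otud1-/- and 2316 in the WT library. Xist, the transcript of the inactive X chromosome of female cells, gave 5 UMIs in the whole library labelled Otud1-/- and 14449 in the WT library, where transcripts of 4 Y-linked genes were present too (6696 UMIs). Genotype, sex makeup and library therefore cannot be told apart. The libraries shared 37 barcode sequences, 1 of them on a cytotoxic CD8 cell in each library, and no barcode was a cytotoxic CD8 cell in both.

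The data went partly against the cell type label. All 4 T cell markers and all 5 markers of effector CD8 T cells (Cd8a, Cd8b1, Gzmk, Gzmb and Nkg7) were present in both libraries. These genes are part of the rule that chose the cells, so their presence is no check of the label. Transcripts of another cell type were also carried by 71 of the 177 cytotoxic CD8 cells of the library labelled Otud1-/- (40.1%, 32.8% to 47.7%, Clopper-Pearson). The same held for 179 of 283 in the WT library (63.3%, 57.3% to 68.9%). At least 3 UMIs of B cell markers, among them Cd79a, Cd79b and Ms4a1, were in 53 cells of the library labelled Otud1-/- and 116 of the WT library, and at least 3 macrophage UMIs (C1qa, C1qb, C1qc, Csf1r, Cd68) in 32 cells of the library labelled Otud1-/- and 75 of the WT library. MHC class II genes exceeded 1% of UMIs in 57 cells of the library labelled Otud1-/- and 132 of the WT library. In the library labelled Otud1-/- 0 of 177 and in the WT library 69 of 283 cytotoxic CD8 cells (24.4%) held both Xist and Y-linked UMIs, transcripts that mark female and male cells. The whole library labelled Otud1-/- held 5 Xist UMIs, so its 0 cannot show whether its barcodes were mixed. Each of 26 marker genes of other lineages was set against its level in all kept barcodes. The median of these ratios was 57.7% in the library labelled Otud1-/- and 55.7% in the WT library. No doublet caller was run here, and the part of multiplets in these values was not tested.

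**Figure D1:**
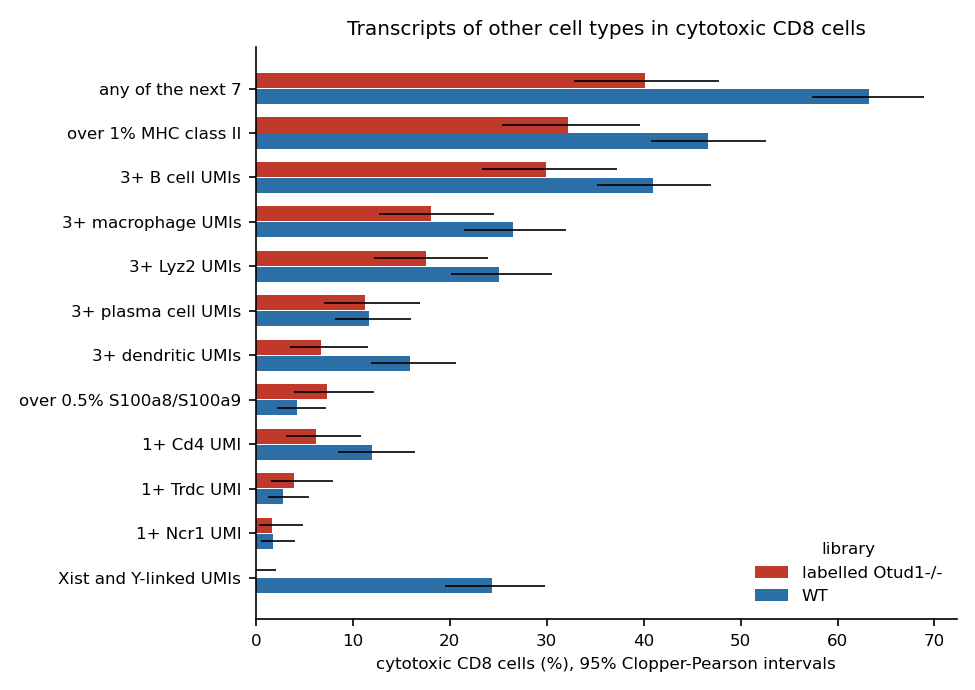
Share of cytotoxic CD8 cells (x axis, percent, with 95% Clopper-Pearson intervals) that carried transcripts of other cell types, for 177 cells of the library labelled Otud1-/- (upper bar of each pair) and 283 of the WT library. The top pair gives cells with any of the next 7 signs, 40.1% in the library labelled Otud1-/- and 63.3% in the WT library.

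Results are therefore given for all cytotoxic CD8 cells and for the single-lineage ones, which had none of the 7 signs in the plot of other-lineage transcripts. These were 106 cells of the library labelled Otud1-/- and 104 of the WT library, with medians of 4831 UMIs per cell in the library labelled Otud1-/- and 3870 in the WT library. Both Xist and Y-linked UMIs were still in 9 of these 104 WT cells (8.65%). In single-lineage cytotoxic cells the same median of other-lineage marker ratios was 2.24% in the library labelled Otud1-/- and 2.42% in the WT library. Macrophage markers summed to 91.5 CPM in the single-lineage cells of the library labelled Otud1-/- and 135 CPM in those of the WT library, against 3479 CPM in all cytotoxic CD8 cells of the library labelled Otud1-/- and 5362 CPM in all those of the WT library. Neutrophil markers summed to 211 CPM in the library labelled Otud1-/- and 80.5 CPM in the WT library, dendritic cell markers to 67.3 and 242 CPM in these libraries, and natural killer (NK) cell markers to 207 and 191 CPM. The epithelial markers Krt5 and Krt14 were at 0. In single-lineage low-cytotoxic cells, 69 and 98 in these libraries, the median of other-lineage marker ratios was 1.69% and 4.93%. Over all low-cytotoxic cells it was 47.1% in the library labelled Otud1-/- and 70.0% in the WT library. Single-lineage low-cytotoxic cells of the WT library also held 199 CPM of γδ T cell markers and 58.4 CPM of mast cell and basophil markers. Its single-lineage cytotoxic cells held 32.2 and 4.03 CPM of these. The part of these remaining transcripts in the differences given further on was not tested. The limits were set after these values were seen, and they hold the genes of the 7 signs down in single-lineage cells.

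The 4 genes of the rule are a description, since they chose the cells. In single-lineage cytotoxic cells Ccl5, a chemokine stored in granules of memory T cells, was at 11587 CPM in the library labelled Otud1-/- and 5624 CPM in the WT library. Nkg7, a granule membrane protein, was at 1481 CPM in the library labelled Otud1-/- and 1105 CPM in the WT library, and was found in 101 of 106 and 97 of 104 cells of these libraries. Gzmb was at 576 CPM in the library labelled Otud1-/- and 604 CPM in the WT library, and Gzmk at 114 and 141 CPM in these libraries. Over these cells as a whole Gzmb and Gzmk differed little between the libraries, while Ccl5 was higher in the library labelled Otud1-/-. Among cells with a Y-linked UMI and no Xist UMI Gzmb differed more, as given further on. Among the granzymes, 8 cells of the library labelled Otud1-/- had UMIs of Gzmk alone, 31 of Gzmb alone, 17 of both and 50 of neither. These counts were 6, 23, 28 and 47 cells in the WT library. In B-gated cells, which should lack them, Gzmk was found in 3 of 2866 cells of the library labelled Otud1-/- and 1 of 2131 of the WT library (medians of 4321.5 and 3590 UMIs per cell), and Gzmb in 24 and 46 cells, far below the shares in cytotoxic cells. Ccl5 was the exception, with a UMI in 8.13% of B-gated cells of the library labelled Otud1-/- and 17.5% of those of the WT library. Among all 460 cells, 8 of the library labelled Otud1-/- and 34 of the WT library had UMIs of Ccl5 and of none of the other 3 genes. Without the Ccl5 UMIs, 148 of 177 cells of the library labelled Otud1-/- and 180 of 283 of the WT library would have passed the rule. The median number of UMIs of the 4 genes in a cytotoxic cell was 38 in the library labelled Otud1-/- and 14 in the WT library.

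Cd8b1, the chain that pairs with CD8α in conventional CD8 T cells, was found in 91 of 106 single-lineage cytotoxic cells of the library labelled Otud1-/- and 90 of 104 of the WT library. Cd4 was found in 1 of these cells in the library labelled Otud1-/- and 3 in the WT library, Trdc of γδ T cells in 3 and 3 cells of these libraries, and the NK receptor gene Ncr1 in 1 and 3. In all cytotoxic cells a single Cd8 UMI had been enough for 23 of 177 cells and 92 of 283 cells in the same libraries. The Cd8 genes were part of the rule, so their presence is no check of the cells, while few cells carried a defining gene of another T or NK cell type.

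The share of CD8 T cells that were cytotoxic differed by an amount whose interval included 0. It was 55.8% (50.2% to 61.4%) in the library labelled Otud1-/-, or 177 of 317, and 49.8% (45.6% to 54.0%) in the WT library, or 283 of 568. The difference was 6.01 percentage points with an interval from -0.851 to 12.8. Low-cytotoxic cells made up 33.4% of CD8 T cells in the library labelled Otud1-/- and 40.5% in the WT library, a difference of -7.05 points whose interval, -13.5 to -0.387, did not include 0. In single-lineage cells the shares were 53.5% in the library labelled Otud1-/- and 47.9% in the WT library, with a difference of 5.61 points (-3.99 to 15.1). Cytotoxic CD8 cells made up 2.55% of kept barcodes in the library labelled Otud1-/- and 2.22% in the WT library. After every barcode was thinned to 1000 UMIs the difference among CD8 T cells was 5.77 points, given without an interval. Far fewer cells passed the rule then, 0.437% of kept barcodes in the library labelled Otud1-/- and 0.348% in the WT library. Leaving Ccl5, the gene with the most UMIs in B-gated cells, out of the rule gave 46.7% in the library labelled Otud1-/- and 31.7% in the WT library, the widest gap of the settings tried. That gap is over all cells, other lineages included. Without Ccl5, 89 of 198 single-lineage CD8 T cells of the library labelled Otud1-/- and 88 of 217 of the WT library passed the rule, a narrower gap. The part of other-lineage barcodes in the wider gap was not tested.

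Gzma, a granzyme that the rule did not use, had the largest ratio of the genes ranked in single-lineage cytotoxic over low-cytotoxic cells. In single-lineage cells of the library labelled Otud1-/- it was at 2756 CPM in cytotoxic cells (1597 UMIs) and at 5.67 CPM in low-cytotoxic cells (2 UMIs). It was at 1238 CPM (615 UMIs) and 8.66 CPM (4 UMIs) in the WT library. It was found in 43 of 106 cytotoxic cells of the library labelled Otud1-/- and 44 of 104 of the WT library, against 76 of 2866 and 96 of 2131 B-gated cells. NK-gated cells, at 8461 CPM in the library labelled Otud1-/- and 6841 CPM in the WT library, had more Gzma than cytotoxic CD8 cells, and CD4-gated T cells had 57.5 and 64.9 CPM in these libraries. Gzma thus stood between its levels in NK cells and in CD4 T cells, and was nearly missing from low-cytotoxic CD8 cells.

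The start regions of the 3 granzyme genes are shown because the results turn on these genes, which differ in the cells that held them. Gzma (ENSMUSG00000023132) lies on chromosome 13 at 113093825 to 113100981 on the minus strand of GRCm38, with Gzmk 70.6 kb away at 113171608 to 113225908 on the same strand. Gzmb lies on chromosome 14 at 56258838 to 56262260, minus strand. The windows of 300 bases come from RefSeq (GRCm38.p6, minus strand, printed 5′ to 3′), chr13:113100932-113101231 for Gzma, chr13:113180916-113181215 for Gzmk and chr14:56262285-56262584 for Gzmb. The RefSeq start of Gzmk lies inside the longer gene that GENCODE gives. The Gzma window spans the GENCODE start at 113100981, while the Gzmb window lies wholly upstream of that of Gzmb at 56262260. The 3 windows thus lie differently against the GENCODE starts. Capitals mark matches on either strand to TGTGGT, the core that RUNX factors bind, and to TCACAC, part of the element that T-box factors such as T-bet and EOMES bind.
Gzma: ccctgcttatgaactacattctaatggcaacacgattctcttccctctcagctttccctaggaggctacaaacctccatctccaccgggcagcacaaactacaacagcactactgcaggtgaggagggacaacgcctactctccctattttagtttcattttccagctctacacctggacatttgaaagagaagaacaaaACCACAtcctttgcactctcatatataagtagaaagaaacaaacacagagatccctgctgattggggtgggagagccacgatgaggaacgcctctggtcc
Gzmk: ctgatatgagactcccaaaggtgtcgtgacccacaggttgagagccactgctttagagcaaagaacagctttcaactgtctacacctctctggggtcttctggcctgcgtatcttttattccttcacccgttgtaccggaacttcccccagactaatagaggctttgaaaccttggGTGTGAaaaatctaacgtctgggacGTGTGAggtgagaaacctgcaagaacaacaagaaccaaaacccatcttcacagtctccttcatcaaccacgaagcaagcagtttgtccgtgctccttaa
Gzmb: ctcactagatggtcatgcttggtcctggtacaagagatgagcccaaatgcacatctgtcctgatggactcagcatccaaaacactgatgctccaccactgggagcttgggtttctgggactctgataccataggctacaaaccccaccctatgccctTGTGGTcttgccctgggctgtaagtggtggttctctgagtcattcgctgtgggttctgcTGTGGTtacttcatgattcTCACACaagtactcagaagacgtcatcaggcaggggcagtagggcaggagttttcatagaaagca
Gzma had 1 RUNX match, Gzmk had 2 T-box matches, and Gzmb had 2 RUNX matches and 1 T-box match, with no base in both motifs. Of 32851 RefSeq windows of this length, 16.8% held the RUNX letters, 14.5% the T-box letters and 2.92% both, so such matches are common. The counts did not measure binding.

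**Figure D2:**
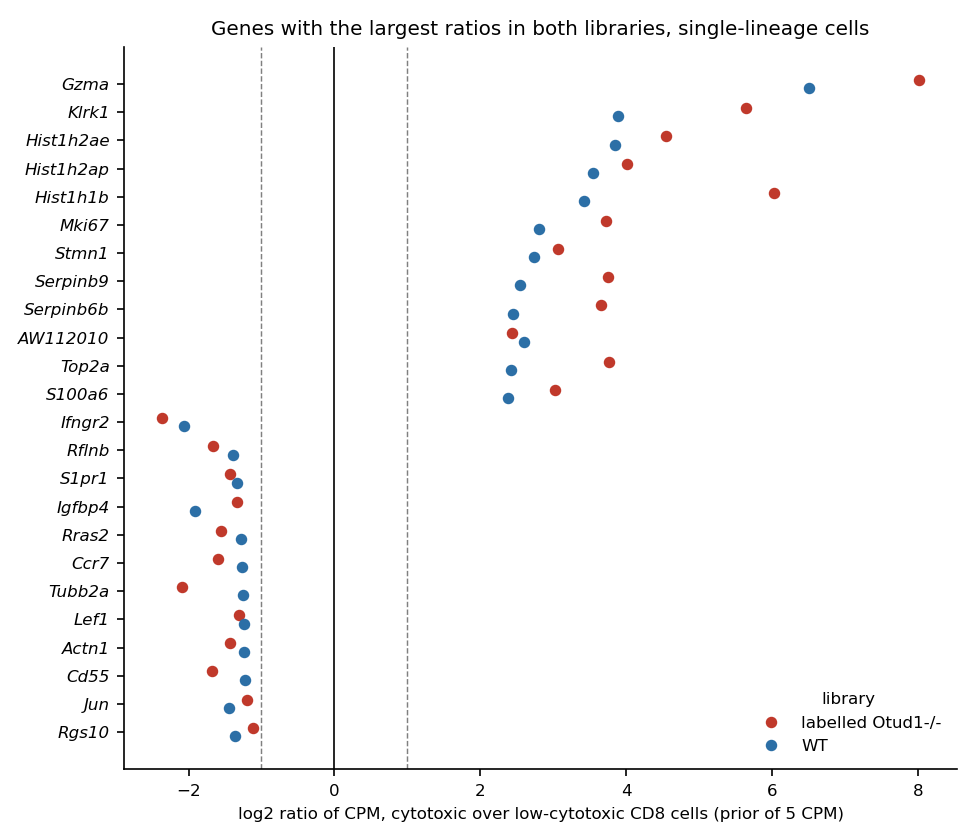
Log2 ratio of CPM in cytotoxic over low-cytotoxic CD8 cells (x axis, prior of 5 CPM) for the 12 highest and 12 lowest genes in both libraries, single-lineage cells only, with points for the library labelled Otud1-/- (upper of each pair) and the WT library and dashed lines at 2-fold. The point of Klrk1 for the library labelled Otud1-/- rests on 0 UMIs in low-cytotoxic cells and depends on the prior.

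Beyond the genes of the rule, single-lineage cytotoxic cells held more transcripts of killing, cell division, S100 and cytoskeleton genes than low-cytotoxic CD8 cells, and fewer of genes of naive, recirculating cells. A gene counted as measured if it averaged 50 CPM and had 40 UMIs over the groups compared. Of 2156 genes measured in both libraries, 68 (3.15%) passed 2-fold upward in both and 17 (0.788%) passed it downward. Over all cytotoxic and low-cytotoxic cells, other lineages included, 12 of 2461 genes (0.488%) passed 2-fold upward and 5 (0.203%) downward, and 11 of those 12 were among the 68. By list over all cells, 2 of 5 granule and killing genes passed upward in both libraries, with 4 above 0. It was 1 of 11 for cell cycle genes (11 above 0) and 1 of 13 for adhesion genes (11 above 0). It was 1 of 22 for S100, annexin and cytoskeleton genes (17 above 0) and 0 of 8 for residency genes (6 above 0). Of 15 naive and recirculation genes 1 passed downward and 13 were below 0. The lists of this contrast given next are for single-lineage cells. In single-lineage cells with a Y-linked UMI and no Xist UMI, where the WT groups had 24 and 26 cells, 6 of the 764 genes measured there passed upward and 0 downward. The same UMIs chose the cells, so these contrasts carry no test and genes are named by size alone.

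Granule and killing genes were higher as a group. Of 8 measured in both libraries, 5 passed 2-fold upward in both libraries and none downward, with medians of 1.90 (log2 ratio) over the 10 genes measured in the library labelled Otud1-/- and 1.53 over the 8 in the WT library, beside medians over all genes of 0.14 in the library labelled Otud1-/- and 0.04 in the WT library. Serpinb9, an inhibitor that protects killer cells from their own granzyme B, was at 176 CPM in cytotoxic and 8.50 CPM in low-cytotoxic cells of the library labelled Otud1-/-. In cells of the WT library it was at 113 CPM in cytotoxic and 15.1 CPM in low-cytotoxic cells. Its relative Serpinb6b was at 166 CPM in cytotoxic and 8.50 CPM in low-cytotoxic cells of the library labelled Otud1-/- and at 129 and 19.5 CPM in the WT library. Ctsw, a lysosomal protease of killer cells, was at 290 CPM in cytotoxic and 102 CPM in low-cytotoxic cells of the library labelled Otud1-/-, and at 278 and 69.2 CPM in these groups of the WT library. Prf1, which encodes perforin, was scarce, with 63 UMIs (109 CPM) in cytotoxic cells of the library labelled Otud1-/- and 27 UMIs (54.4 CPM) in those of the WT library, and was below the minimum level in the WT contrast. Lamp1, a general lysosome gene, did not follow, with log2 ratios of 0.09 in the library labelled Otud1-/- and -0.84 in the WT library.

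NK receptor genes, which effector CD8 T cells switch on after activation, were present in cytotoxic cells, and Klrk1 and Klrc1 were nearly missing from low-cytotoxic ones. Klrk1, the gene of NKG2D, was found in 49 of 106 cytotoxic cells (142 UMIs, 245 CPM) and in 0 of 69 low-cytotoxic cells of the library labelled Otud1-/-. The WT library had it in 25 of 104 cytotoxic cells (50 UMIs, 101 CPM) and in 1 of 98 low-cytotoxic cells. These receptors sense stress and MHC class I-like ligands on target cells. Klrc1, which encodes NKG2A, had 122 UMIs in cytotoxic and 1 in low-cytotoxic cells of the library labelled Otud1-/-, and 41 and 3 UMIs in these groups of the WT library. Klrd1, the partner chain CD94, was more widely present, at 311 CPM in cytotoxic and 153 CPM in low-cytotoxic cells of the library labelled Otud1-/-, and at 223 and 102 CPM in these groups of the WT library. Fasl had 115 UMIs in cytotoxic and 0 in low-cytotoxic cells of the library labelled Otud1-/-, and 31 and 1 UMIs in the WT library.

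Transcripts of division genes were higher in cytotoxic cells, and came from few of them. Among 10 measured cell cycle genes 5 passed 2-fold in both libraries and all 10 were above 0, with medians of 1.66 in the library labelled Otud1-/- and 1.43 in the WT library. Mki67, a protein of dividing cells, had 57 UMIs in cytotoxic and 1 UMI in low-cytotoxic cells of the library labelled Otud1-/-, and 60 and 6 UMIs in the WT library. Histone genes showed how few cells carried this: Hist1h1b had 401 UMIs in 14 of 106 cells of the library labelled Otud1-/-, with 137 in 1 cell, and 116 UMIs in 23 of 104 cells of the WT library. At least 2 UMIs of Mki67 and Top2a were found in 7 of 106 cytotoxic and 0 of 69 low-cytotoxic single-lineage cells of the library labelled Otud1-/-, and in 11 of 104 and 2 of 98 cells of these groups of the WT library. In WT single-lineage cells with a Y-linked UMI and no Xist UMI, 24 cytotoxic and 26 low-cytotoxic cells, Hist1h1b was not higher in cytotoxic cells (log2 ratio -0.78).

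S100, annexin, cytoskeleton and adhesion genes were higher as well. Among 21 measured S100, annexin and cytoskeleton genes 12 passed 2-fold in both libraries and 20 were above 0, with medians of 1.27 over the 22 measured in the library labelled Otud1-/- and 1.04 over the 21 in the WT library. Among WT cells with a Y-linked UMI and no Xist UMI the median was -0.11, and S100a6 lay at -1.16. S100a6, a calcium-binding protein of activated and memory T cells, was at 1075 CPM in cytotoxic and 128 CPM in low-cytotoxic cells of the library labelled Otud1-/-, and at 1313 and 249 CPM in the WT library. Lgals1, which encodes galectin-1, was at 1374 CPM in cytotoxic and 162 CPM in low-cytotoxic cells of the library labelled Otud1-/-, and at 982 and 245 CPM in these groups of the WT library. Among adhesion genes 5 of 12 passed 2-fold in both libraries, including Itgb1, the β1 integrin chain, with 119 UMIs in cytotoxic and 12 in low-cytotoxic cells of the library labelled Otud1-/-, and 63 and 19 UMIs in these groups of the WT library. Ly6c2, a surface protein of effector and memory CD8 cells, was at 1013 CPM in cytotoxic and 337 CPM in low-cytotoxic cells of the library labelled Otud1-/-, and at 811 and 193 CPM in these groups of the WT library. Cxcr6, a chemokine receptor gene of tissue-resident T cells, was higher as well, with log2 ratios of 3.55 in the library labelled Otud1-/- and 1.47 in the WT library. Among 8 measured residency genes 2 passed 2-fold in both libraries, Cxcr6 and the costimulator Icos. Itgae, the CD103 chain that holds T cells to epithelium, was not among them, with 46 UMIs in cytotoxic and 12 in low-cytotoxic cells of the library labelled Otud1-/-, and 13 and 16 UMIs in these groups of the WT library.

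Genes of naive and recirculating cells were lower. Of 16 measured, 5 passed 2-fold downward in both libraries and 14 were below 0, with medians of -1.17 over these 16 in the library labelled Otud1-/- and -0.80 over 17 in the WT library. Ccr7 was at 290 CPM in cytotoxic and 887 CPM in low-cytotoxic cells of the library labelled Otud1-/-, and at 308 and 747 CPM in the WT library. S1pr1, the receptor that lets T cells leave lymph nodes and tissues, was at 152 CPM in cytotoxic and 417 CPM in low-cytotoxic cells of the library labelled Otud1-/-, and at 199 and 513 CPM in these groups of the WT library. Lef1 was at 224 CPM in cytotoxic and 561 CPM in low-cytotoxic cells of the library labelled Otud1-/-, and at 278 and 664 CPM in these groups of the WT library. Receptor and factor genes of naive cells were thus both lower. Igfbp4, known as a transcript of naive T cells, was at 39.7 CPM in cytotoxic and 108 CPM in low-cytotoxic cells of the library labelled Otud1-/-, and at 22.1 and 97.4 CPM in these groups of the WT library. The gene furthest down was Ifngr2, the signalling chain of the interferon-γ receptor, at 22.4 CPM in cytotoxic and 136 CPM in low-cytotoxic cells of the library labelled Otud1-/-, and at 42.3 and 193 CPM in these groups of the WT library. Il7r, the survival receptor of naive and memory cells, stayed short of 2-fold, with log2 ratios of -0.54 in the library labelled Otud1-/- and -0.86 in the WT library. Among single-lineage cells with a Y-linked UMI and no Xist UMI, differences were smaller. The log2 ratio nearer to 0 of the 2 libraries was -0.21 for Ccr7, -0.63 for Lef1, -0.77 for S1pr1 and -0.62 for Igfbp4, all short of 2-fold. Ifngr2 stayed lower there, at -1.71.

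MHC class I genes leaned upward and ribosomal protein genes downward, each by little. All 17 measured MHC class I and antigen processing genes were above 0 in both libraries, with medians of 0.49 over these in the library labelled Otud1-/- and 0.36 over 18 in the WT library, and none passed 2-fold in both. Psmb9, a subunit of the immunoproteasome, led them at 0.91 in the library labelled Otud1-/- and 1.18 in the WT library, and Tap1, part of the peptide transporter, had 0.89 and 1.15 in these libraries. Of 77 measured ribosomal protein genes 69 were below 0 in both libraries, with medians of -0.33 in the library labelled Otud1-/- and -0.22 in the WT library, and none passed 2-fold. Transcription factor genes differed more in the library labelled Otud1-/-, with a median of 1.08 over 15 measured genes, than in the WT library, with 0.14 over 13, and none passed 2-fold in both. Runx3, which drives CD8 and cytotoxic genes, came closest, with log2 ratios of 0.99 in the library labelled Otud1-/- and 1.01 in the WT library. Klf2, which drives S1pr1, was at 476 CPM in cytotoxic and 955 CPM in low-cytotoxic cells of the library labelled Otud1-/-, and at 445 and 920 CPM in these groups of the WT library. Signalling genes leaned upward, with 3 of 21 T cell receptor and costimulation genes past 2-fold in both libraries (Cd6, Icos and Sh2d1a) and 18 above 0. Among 4 measured cytokine genes Fgl2, a secreted inhibitor of T cells, and Ltb, a lymphotoxin chain, passed 2-fold in both, Ltb at 290 CPM in cytotoxic and 142 CPM in low-cytotoxic cells of the library labelled Otud1-/- and at 236 and 80.1 CPM in these groups of the WT library. Ifng was scarce, with 15 UMIs in 9 of 106 cytotoxic cells of the library labelled Otud1-/- and 7 UMIs in 5 of 104 of the WT library. No checkpoint or exhaustion gene had enough UMIs to be measured in both libraries. Pdcd1, which encodes PD-1, was found in 19 of 106 cytotoxic cells of the library labelled Otud1-/- and 19 of 104 of the WT library.

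The cytotoxic cells were not uniform, and their other genes followed how many UMIs of the 4 chosen genes they held. Ccr7, Lef1 and Tcf7 summed to 1275 CPM in the 31 single-lineage cells of the library labelled Otud1-/- with 3 to 9 cytotoxic UMIs, 599 CPM in the 26 cells with 10 to 49 and 131 CPM in the 49 cells with 50 or more. The WT library had sums of 1179 CPM in 35 cells, 670 CPM in 41 cells and 308 CPM in 28 cells. Cells with 3 to 9 cytotoxic UMIs thus kept most of the naive gene level of cells with none, which was 1517 CPM in the library labelled Otud1-/- and 1799 CPM in the WT library. Gzma ran the other way, with 14.9, 367 and 6322 CPM along the 3 classes of the library labelled Otud1-/- and 186, 1172 and 2353 CPM along those of the WT library. Median UMIs per cell along the classes were 5642, 4519 and 3964 in the library labelled Otud1-/- and 4196, 3598 and 4803.5 in the WT library, so in the library labelled Otud1-/- the cells with most cytotoxic UMIs were the shallowest. At the edge of the rule, the 12 cells with exactly 3 cytotoxic UMIs in the library labelled Otud1-/- held 1411 CPM of these naive genes, against 1512 CPM in the 23 cells with exactly 2. The 12 cells with 3 in the WT library held 885 CPM and the 15 cells with 2 held 1348 CPM.

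**Figure D3:**
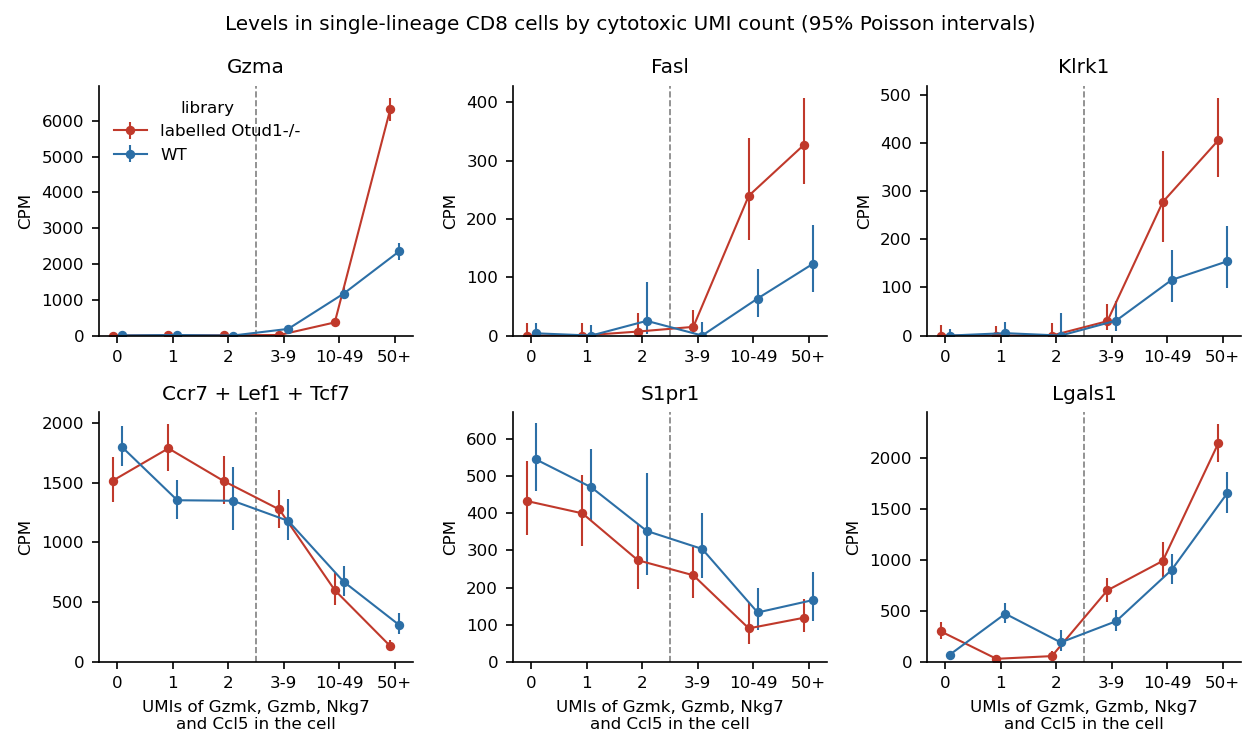
CPM (y axis, with 95% Poisson intervals) of 5 genes and of the sum of Ccr7, Lef1 and Tcf7 in single-lineage CD8 cells, by the number of UMIs of Gzmk, Gzmb, Nkg7 and Ccl5 in the cell (x axis), for the library labelled Otud1-/- (red) and the WT library (blue). The dashed line marks the threshold of 3 UMIs, and Gzma reaches 6322 CPM in the library labelled Otud1-/- and 2353 CPM in the WT library at 50 or more UMIs.

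Cells with Gzmb differed from those without either granzyme. In the library labelled Otud1-/-, the 31 cells with Gzmb alone held 7019 CPM of Gzma and the 17 with both granzymes 6001 CPM, against 213 CPM in the 8 cells with Gzmk alone and 207 CPM in the 50 cells with neither. Gzma in the WT library was at 1029 CPM in the 23 cells with Gzmb alone, 3609 CPM in the 28 with both, 787 CPM in the 6 with Gzmk alone and 64.3 CPM in the 47 with neither. The same naive genes summed to 1053 CPM in cells with neither granzyme in the library labelled Otud1-/- and 1113 CPM in those of the WT library, and to 63.6 CPM in cells with both in the library labelled Otud1-/- and 149 CPM in the WT library. Cells with neither granzyme, which entered through Nkg7 or Ccl5, thus held the most naive transcripts and little Gzma in both libraries.

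Between the libraries, cytotoxic CD8 cells of the library labelled Otud1-/- held more Gzma, Fasl, Klrk1 and Klrc1 transcripts than those of the WT library, and this was so in all cytotoxic cells and in the single-lineage ones. Over all cytotoxic cells, 13 of 2724 genes (0.477%) passed 2-fold upward and 31 (1.14%) downward. In single-lineage cells 47 of 2495 genes (1.88%) passed it upward and 31 (1.24%) downward, and 7 of the 13 and 5 of the 31 genes were shared. Most of these genes therefore depended on which cells were kept. In single-lineage cells with a Y-linked UMI and no Xist UMI, 67 of the library labelled Otud1-/- and 24 of the WT library, 165 of the 1732 genes measured there passed upward and 20 downward. The genes named next are those at the ends of the ranking.

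Over all cytotoxic cells the lower end was led by macrophage genes. Retnla was at 6.72 CPM in the library labelled Otud1-/- and 208 CPM in the WT library, Ccl7 at 10.1 and 163 CPM in these libraries, and C1qa at 149 and 582 CPM. These genes are known from macrophages. In single-lineage cells Retnla had 0 UMIs in the library labelled Otud1-/- and 2 in the WT library, and Ccl7 had 0 and 0. Tnf, a cytokine of T cells and macrophages, was at 23.5 CPM in all cytotoxic cells of the library labelled Otud1-/- and 86.3 CPM in those of the WT library, and had 3 and 2 UMIs in single-lineage cells of these libraries. At the upper end Spp1, which encodes osteopontin, was at 113 CPM in all cytotoxic cells of the library labelled Otud1-/- and 13.1 CPM in those of the WT library, and had 5 and 1 UMIs in single-lineage cells of these libraries. Of the 10 lowest genes over all cells, Ctla4 alone had enough UMIs in single-lineage cells to be measured, and was more than 2-fold lower in both sets, with log2 ratios of -1.50 over all and -1.40 in single-lineage cells.

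**Figure D4:**
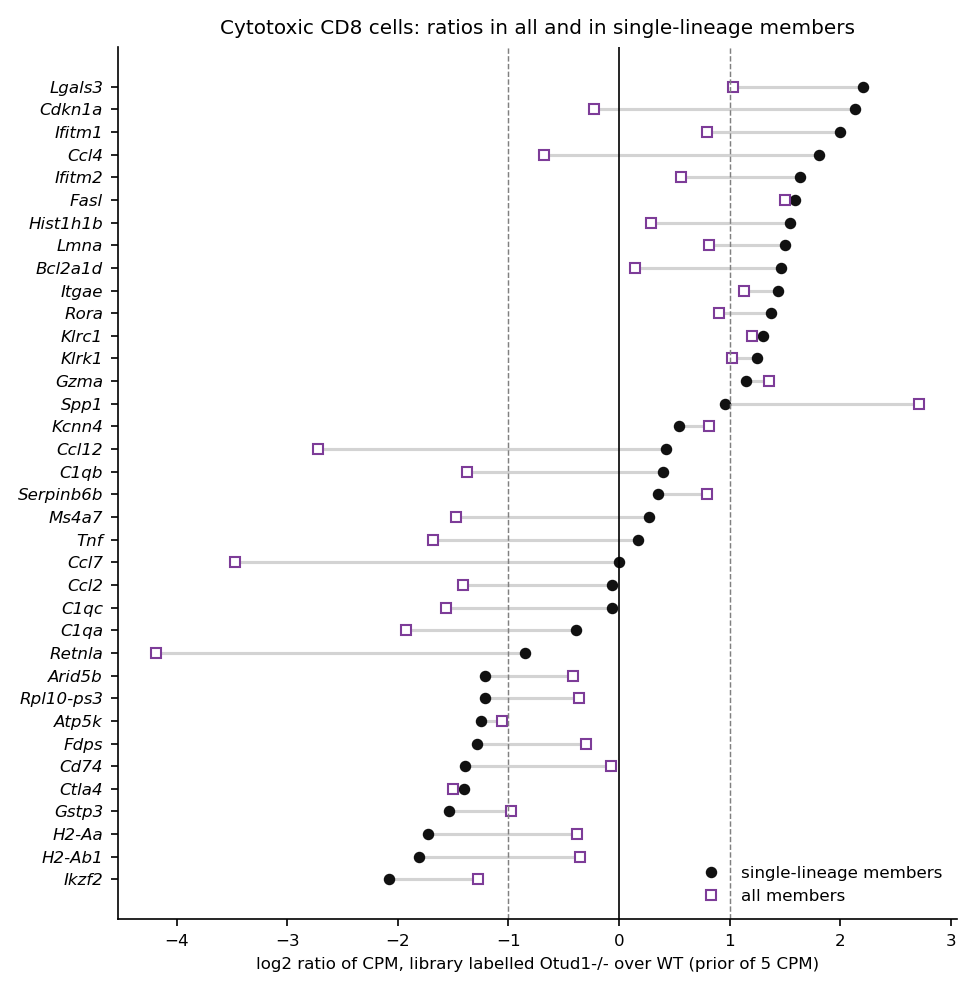
Log2 ratio of CPM in cytotoxic CD8 cells of the library labelled Otud1-/- over the WT library (x axis, prior of 5 CPM) for the genes named by rank, in all cytotoxic cells (open squares) and in single-lineage cells (black points). Ccl7, with 0 UMIs in single-lineage cells, lies at -3.47 in all cells and at 0.00 in single-lineage cells, while Klrc1 lies at 1.20 and 1.30.

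Fasl and Gzma were higher in the library labelled Otud1-/- in both sets of cells. Fasl was at 198 CPM (115 UMIs) in single-lineage cytotoxic cells of the library labelled Otud1-/- and 62.4 CPM (31 UMIs) in those of the WT library, a ratio of 3.18 (2.12 to 4.89). It was found in 54 of 106 cells and 20 of 104 cells, against 0.454% and 0.469% of B-gated cells. Over all cytotoxic cells its ratio was 3.16 (2.36 to 4.26). Gzma had a ratio of 2.23 (2.03 to 2.45) in single-lineage cells and 2.57 (2.39 to 2.76) over all. A Gzma UMI was in 40.6% of cells of the library labelled Otud1-/- and 42.3% of cells of the WT library, while the median number of Gzma UMIs in those cells was 21 and 7.5 in these libraries. Klrc1 had a ratio of 2.55 (1.78 to 3.73), and Klrk1 had 2.43 (1.75 to 3.43). Of the NK receptor genes 3 of 6 measured passed 2-fold upward in single-lineage cells and 2 were below 0, and over all cytotoxic cells 2 of 5 passed and 2 were below 0. All 11 measured granule and killing genes were above 0 in single-lineage cells, with a median of 0.46 against 0.05 over all genes, and 2 of them passed 2-fold, Fasl and Gzma. Over all cytotoxic cells 6 of 8 were above 0, with a median of 0.37, and 2 passed. Immediate early and dissociation-associated genes, which cells switch on when tissue is taken apart, moved with them: 19 of 24 were above 0 in single-lineage cells, with a median of 0.39 and none past 2-fold, and 15 of 29 over all cytotoxic cells, with a median of 0.11. Their part in the differences was not tested.

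These differences moved with other properties of the cells. More of the single-lineage cytotoxic cells of the library labelled Otud1-/- held 50 or more cytotoxic UMIs, 49 of 106 against 28 of 104 in the WT library. Within the class of 50 or more, Fasl was at 327 CPM (260 to 407) in the library labelled Otud1-/- and 123 CPM (75.2 to 190) in the WT library, and within 10 to 49 it was at 240 CPM (164 to 338) and 63.5 CPM (31.7 to 114). Klrk1 was at 405 CPM in the library labelled Otud1-/- and 154 CPM in the WT library in the upper class and at 277 and 115 CPM in the middle class. Gzma was higher in the upper class, at 6322 and 2353 CPM, but lower in the middle class, at 367 CPM in the library labelled Otud1-/- and 1172 CPM in the WT library. In cells with 3 to 9 cytotoxic UMIs Fasl had 3 UMIs in the library labelled Otud1-/- and 0 in the WT library, and Klrk1 had 6 and 5 UMIs in these libraries. The upper class has no upper limit, and the median single-lineage cytotoxic cell held 43.5 cytotoxic UMIs in the library labelled Otud1-/- and 16 in the WT library, so cells of a class need not hold like numbers.

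Sex-linked transcripts moved with the same genes inside the WT library. Its 55 single-lineage cytotoxic cells with an Xist UMI held 1666 CPM of Gzma, and its 24 cells with a Y-linked UMI and no Xist UMI held 772 CPM, in 31 and 3 cells. Of the 55 cells with Xist, 9 also held a Y-linked UMI. Of the 112 Gzma UMIs of the Y-linked set, 56 came from 1 cell. Gzmb was at 881 and 69.0 CPM in these sets, and the 3 naive genes summed to 409 and 1220.5 CPM. The 67 cells of the library labelled Otud1-/- with a Y-linked UMI and no Xist UMI held 2273 CPM of Gzma, 506 CPM of Gzmb and 667 CPM of the 3 naive genes. Fasl varied less inside the WT library, at 69.4 CPM in the Xist set and 41.4 CPM in the Y-linked set, both under the 181 CPM of the Y-linked set of the library labelled Otud1-/-. By cells, Fasl was found in 36 of 67 cells of that set, against 4 of 24 and 13 of 55 cells of the WT sets with Y-linked UMIs alone and with Xist. How far sex, or animals that differed in other ways, had a part in the differences between the libraries was not tested.

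**Figure D5:**
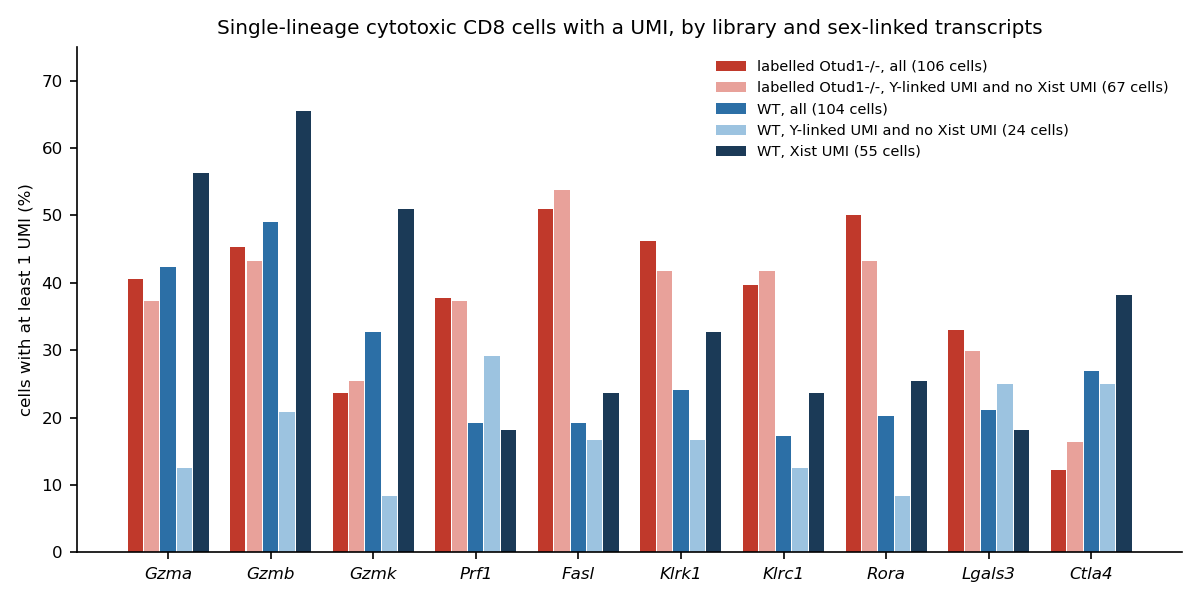
Share of single-lineage cytotoxic CD8 cells with at least 1 UMI (y axis, percent) of 10 genes, for the library labelled Otud1-/- (red, all 106 cells, and pale red, 67 cells with a Y-linked UMI and no Xist UMI) and the WT library (blue, all 104 cells, pale blue, 24 cells with a Y-linked UMI and no Xist UMI, and dark blue, 55 cells with an Xist UMI). Fasl is higher in both sets of the library labelled Otud1-/- than in all 3 sets of the WT library, while Gzma and Gzmb differ between the WT sets.

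Other genes at the upper end were carried by fewer cells. Lgals3, which encodes galectin-3, was at 362 CPM (210 UMIs in 35 cells) in single-lineage cytotoxic cells of the library labelled Otud1-/- and 74.5 CPM (37 UMIs in 22 cells) in those of the WT library, a ratio of 4.87 (3.42 to 7.10). Ifitm1, an interferon-induced membrane protein, had 116 UMIs in 14 cells of the library labelled Otud1-/-, 47 of them in 1 cell, and 23 UMIs in 5 cells of the WT library. Cdkn1a, the cell cycle inhibitor p21, had 56 UMIs in 23 cells of the library labelled Otud1-/- and 9 UMIs in 4 cells of the WT library, but over all cytotoxic cells its log2 ratio was -0.23. The chemokine gene Ccl4 was at 154 CPM in the library labelled Otud1-/- and 40.3 CPM in the WT library, but over all cytotoxic cells its log2 ratio was -0.68. Itgae was found in 19 of 106 cells of the library labelled Otud1-/- (79.4 CPM) and 9 of 104 cells of the WT library (26.2 CPM). At an equal depth of 1000 UMIs per cell, Klrk1 was found in 25 of 106 cells of the library labelled Otud1-/- (15.9% to 32.8%) and 8 of 100 cells of the WT library (3.52% to 15.2%), and Itgae in 9 of 106 and 4 of 100 cells. The Klrk1 share thus remained higher at equal depth, while the intervals of Itgae overlapped.

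Transcription factor genes leaned the same way in single-lineage cells but not over all cytotoxic cells. Of 16 measured in single-lineage cells, 3 passed 2-fold upward in the library labelled Otud1-/- and none downward, with a median of 0.45, while over all cytotoxic cells 10 of 18 were above 0, 1 passed 2-fold downward and none upward, with a median of 0.06. Eomes, a T-box factor of memory and cytotoxic cells, was at 112 CPM in the library labelled Otud1-/- and 42.3 CPM in the WT library, a ratio of 2.65 (1.60 to 4.57). Rora was at 243 CPM in the library labelled Otud1-/- and 90.6 CPM in the WT library. Bhlhe40, a factor of activated and resident T cells, had a log2 ratio of 1.12, but 0.07 over all cytotoxic cells. Id2, which supports effector cells, was at 350 CPM in the library labelled Otud1-/- and 207 CPM in the WT library, short of 2-fold.

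Genes at the lower end included some known from regulatory and activated T cells. Ikzf2, which encodes Helios, was at 46.6 CPM in single-lineage cytotoxic cells of the library labelled Otud1-/- (14 cells) and 213 CPM in those of the WT library (22 cells), a ratio of 0.218 (0.138 to 0.336). Ctla4, the inhibitory receptor, was at 39.7 CPM (13 cells) in the library labelled Otud1-/- and 113 CPM (28 cells) in the WT library, a ratio of 0.352 (0.207 to 0.581). Foxp3, the defining gene of regulatory T cells, was at 0 by the rule. Of the 106 Ikzf2 UMIs in the WT library 76 were in cells with Xist, and between the Y-linked sets Ctla4 was close to level, with a log2 ratio of -0.08, while Ikzf2 stayed lower at -1.71. Atp5k, a subunit of mitochondrial ATP synthase, was at 138 CPM in the library labelled Otud1-/- and 334 CPM in the WT library, with a log2 ratio of -1.06 over all cytotoxic cells.

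The other lists had few genes past 2-fold between the libraries. In single-lineage cells NF-kB and survival genes had a median of 0.32, with 12 of 17 above 0, and residency genes 0.32, with 10 of 12 above 0, while over all cytotoxic cells these medians were 0.01 and -0.05. Of 77 ribosomal protein genes none passed 2-fold, with a median of 0.05. MHC class I and antigen processing genes had a median of 0.06 and cell cycle genes -0.16. Over all cytotoxic cells naive and recirculation genes had a median of -0.31, with 10 of 13 below 0. In single-lineage cells their median was -0.18, with 13 of 14 below 0 and 1 past 2-fold downward, while 55.2% of all genes were above 0. Interferon-stimulated genes had a median of -0.19 and 2 of 14 past 2-fold downward, among them Ifi27l2a at 535 CPM in the library labelled Otud1-/- and 1210 CPM in the WT library. None of 12 mitochondrially encoded genes was above 0, with a median of -0.29, and mt-Atp8 passed 2-fold downward. Otud1 itself was too scarce in these cells to compare, with 13 UMIs in 12 of 106 single-lineage cytotoxic cells of the library labelled Otud1-/- and 6 UMIs in 6 of 104 of the WT library.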

How the data were processed

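Droplet libraries (10x 3′, kit version 3.1) of gingival immune cells, 1 per genotype, were deposited as UMI counts per gene and barcode, which the authors had made with Cell Ranger (5.0.0 per the submitters' processing notes, 6.0.1 per the file headers) against mm10; Seurat 3.2.3 is named too, but no cell annotation was used here. The 2 libraries held 44083735 UMIs (Otud1-/-) and 44878537 UMIs (WT).

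Counts were summed over the cells of a library and group and scaled to CPM. Log2 ratios used a prior of 5 CPM, and a gene was measured with a mean of 50 CPM and 40 UMIs over both groups. Ratio intervals were exact conditional binomial, CPM intervals Poisson, share intervals Clopper-Pearson and intervals of differences in share Newcombe, all at 95%. Reads amplified by PCR were collapsed by UMI. B-gated cells had no CD3 UMI and at least 6 of Cd79a, Cd79b and Ms4a1, NK-gated cells no CD3 UMI and at least 2 of Ncr1 and Klrb1c, and CD4-gated T cells a Cd4 and no Cd8 UMI. Thinning drew 1000 UMIs per barcode and left out 295 and 1283 shallower barcodes. Python 3.11.15, numpy 2.4.6, scipy 1.17.1, pandas 2.3.3 and edgeR 4.0.16 (TMM factors as an alternative scaling) were used, and the comparison was tested on simulated data. Promoter windows came from the RefSeq table and positions of genes from GENCODE, both GRCm38. Alternatives covered scaling, filter, prior, depth, mitochondrial limit, threshold and other-lineage barcodes. The members, gene lists and rules were chosen with earlier results of these data known, and the single-lineage limits, the minimum of 2 Cd8 UMIs and the rule without Ccl5 after seeing these data. Named were the 12 highest and 12 lowest genes of cytotoxic over low-cytotoxic cells, the 10 highest and 10 lowest between the libraries, up to 4 per list and genes chosen by role; genes of the rule, Xist, Y-linked, antigen receptor, haemoglobin and predicted genes were left out of the rankings. Some genes of the lists are not reported here.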

Additional observations from a re-analysis of the deposited data

Results flagged for a closer look

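Rora, which encodes the nuclear receptor RORα, differed between the libraries in opposite directions in cytotoxic and low-cytotoxic CD8 cells. In single-lineage cytotoxic cells it had 141 UMIs (243 CPM) in 53 of 106 cells of the library labelled Otud1-/- and 45 UMIs (90.6 CPM) in 21 of 104 cells of the WT library, a log2 ratio of 1.38. In single-lineage low-cytotoxic cells it had 18 UMIs in 9 of 69 cells of the library labelled Otud1-/- and 50 UMIs in 23 of 98 cells of the WT library, a log2 ratio of -1.01. The ratios were 2.69 (1.91 to 3.85) and 0.472 (0.259 to 0.822). The difference between these ratios was not tested, since each genotype had 1 library. In the WT library 17 of the 45 UMIs came from 1 cytotoxic cell, and cells with Xist held 36 of them. Rora was not alone in this. Between the libraries, 13 of 16 transcription factor genes were above 0 in single-lineage cytotoxic cells (median 0.45). In low-cytotoxic cells 2 of 9 were above 0 and 7 below (median -0.62). The low-cytotoxic groups also differed in γδ T cell markers, at 17.0 CPM in the library labelled Otud1-/- and 199 CPM in the WT library.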

How the results depend on the processing

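No paired analysis was possible because each genotype had 1 library, and no library could be left out. Without Ccl5 in the rule, the cytotoxic share of CD8 cells, other lineages included, was 15 points higher in the library labelled Otud1-/-. As a share of kept barcodes the difference was 0.990 points with at most 5% mitochondrial UMIs. It was 1.24 points with Y-linked cells only (a Y-linked UMI and no Xist UMI). Between the libraries, the 13 genes past 2-fold upward became 5 with the stricter filter (100 CPM and 80 UMIs), 92 with no filter, 74 with expected RNA of other cells taken out, 8 when thinned, 37 without barcodes of other lineages, 69 in Y-linked cells, 47 in single-lineage cells, 21 without Ccl5 and 60 at 1.5-fold. The 31 downward became 14 with the stricter filter, 109 with none, 149 with expected RNA taken out, 15 when thinned (0 shared with the 31), 19 without Ccl5 and 92 at 1.5-fold. In single-lineage cells the 47 upward became 22 with the stricter filter and 165 in Y-linked cells, and the 31 downward became 11 and 20. Cytotoxic over low-cytotoxic, the 12 upward became 45 with no filter, 19 without each gene's highest cell, 130 with expected RNA taken out, 22 by the mean over cells, 44 without barcodes of other lineages, 30 without cells with Cd4, Trdc, Ncr1 or no Trac, 7 in Y-linked cells, 68 in single-lineage cells, 20 with at least 2 Cd8 UMIs and 47 at 1.5-fold. The 5 downward became, in the same order of settings, 10, 3, 24, 11, 15, 8, 1 and 17, then 18 at 1.5-fold, 8 with a threshold of 5 UMIs and 1 when thinned. In single-lineage cells the 68 became 35 with the stricter filter and 6 in Y-linked cells, and the 17 became 9 and 0. TMM factors, median of ratios and a prior of 1 CPM left each of these counts within 1.5 times, and the scaling that moved log2 ratios most shifted them by -0.0868.

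Signs turned for few results. Over all cells, between the libraries, the chemokine median was 0.86 without barcodes of other lineages and 1.03 in single-lineage cells; Retnla lay at 0.33 in Y-linked cells, and Ccl12 at 0.43, Tnf at 0.17, Ms4a7 at 0.27 and C1qb, which the limits hold down, at 0.40 in single-lineage cells (C1qb 0.045 without barcodes of other lineages). In Y-linked cells the ratios of cytotoxic over low-cytotoxic turned for Hist1h1b (-0.59 over all cells, -0.78 in single-lineage cells), Lgals1 (-0.20 over all cells), S100a6 (-1.16) and Actn1 (0.45), and Cd74 between the libraries lay at 0.037. WT list medians turned in single-lineage Y-linked cells for residency (-0.73), migration receptor (-0.49) and S100 genes (-0.11), and for migration receptors with the stricter filter (-0.93). The cause was not tested; the Y-linked WT sets were small. Of the other values over all cells, 892 list medians stayed within 0.3 and 179 did not, and 544 ratios of named genes stayed within 0.5 and on their side of 2-fold and 196 did not. In single-lineage cells these counts were 380 and 57, and 259 and 45. At this depth Ifng and Otud1 had too few UMIs for a comparison in single-lineage cells, and Prf1 and the checkpoint genes too few for one of cytotoxic over low-cytotoxic cells in both libraries.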
